A study of Mus musculus with 6 samples.

Results

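The ATP-binding cassette (ABC) transporter genes of mouse liver were described in RNA of 3 mice injected with vehicle and 3 injected with an adenovirus that overexpresses Chrna4, which encodes an alpha subunit of nicotinic acetylcholine receptors. All symbols of the subfamilies Abca to Abcg in the deposited table were taken, apart from the bile salt and conjugate exporter genes Abcb11, Abcb4, Abcc2 and Abcc3, which left 38 of the 14492 genes. All 6 mice were C57BL/6J males, 8 weeks old when the vehicle or virus was given through the tail vein, and all ate a high-fat diet from then until the livers were taken 2 weeks later. The promoter of the virus, the cells it entered and whether vehicle held a control virus are not stated in the labels. Polyadenylated RNA was read as 150 bp pairs. Each library has a liver number of its own in the labels, so p-values measure the spread between these livers.

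ABC transporters use the energy of ATP to move lipids, conjugates, drugs, haem precursors and peptides across membranes, mostly outward from the cytosol. In the liver they form HDL, pass sterols into bile, bring fatty acids into peroxisomes and clear foreign compounds. The E and F subfamilies lack membrane spans and act on ribosomes, and Abcc9 encodes the regulatory subunit of a potassium channel.

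The values are CPM, reads per 1000000 reads of a library total scaled by the authors, and whole reads could be recovered from them. Recovered reads numbered 14959338 to 22440334 per library. The scaling factors were 0.853 to 0.922 in the vehicle libraries and 1.11 to 1.14 in the Chrna4-labelled libraries, and without them the median log2 difference of all tested genes was 0.30 in place of -0.01. Chrna4 itself did not follow the labels: it read 1.70, 4.99 and 3.38 CPM in vehicle and 3.70, 2.17 and 3.82 CPM in the libraries labelled Chrna4, a log2 difference of 0.01 (95% interval -0.68 to 0.69, adjusted p = 0.993 by limma). The sources used here do not give whether reads of the viral Chrna4 could be counted at this mouse gene. Directions below are therefore those of the libraries labelled as given the Chrna4 virus. Markers of other cell types also differed. By limma at an adjusted p under 0.05, 14.2% of all tested genes were higher and 10.3% lower. Of the 20 macrophage markers 13 were higher and 2 lower in the Chrna4-labelled group, with summed levels of 445 to 1062 CPM in vehicle and 1546 to 1620 CPM in Chrna4-labelled. Of 13 tested T, NK and B cell markers 7 were higher, and the 15 in the table summed to 12.3 to 33.2 CPM and 77.4 to 85.1 CPM. Of those 15, 6 had a vehicle mean under 1 CPM, as had 1 macrophage marker. Those of them that were tested reached the mean of 1 CPM needed for testing only through the Chrna4-labelled group. Stellate and matrix markers were higher in 9 of 13, at 235 to 263 CPM and 656 to 713 CPM, and all 3 tested neutrophil markers were higher. Endothelial markers overlapped, at 432 to 511 CPM and 426 to 558 CPM, with 1 of 11 higher and 1 lower. Of 4 tested cholangiocyte markers 1 was higher, and of 5 tested erythroid markers 1 was lower. Hepatocyte markers, among them Alb at 51760 CPM in vehicle, were present at high levels, with 3 of 12 lower and sums of 93516 to 102944 CPM and 76044 to 83568 CPM. All marker sums use the authors' scaling, which lowers Chrna4-labelled values relative to vehicle, and no sum without it was formed. Of the markers in the table, none was at 0 in all vehicle libraries. Vehicle replicate 1 stood apart from the other vehicle libraries, with a macrophage sum of 445 CPM beside 1056 and 1062 CPM and a T, NK and B cell sum of 12.3 CPM beside 33.2 and 25.6 CPM. In bulk RNA, fewer cells of a type and less RNA per cell cannot be told apart.

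Of the 38 genes, 36 had a mean of at least 1 CPM and were tested. In the Chrna4-labelled livers 9 were higher (25%) and 4 lower (11.1%) at an adjusted p under 0.05 by limma, beside 14.2% higher and 10.3% lower among all 12099 genes tested. The 13 called members are 36.1% of those tested, beside 24.5% of all tested genes. They include Abcc12, which passed the filter only through the Chrna4-labelled group. The groups did not overlap for 17 members (47.2%, 8 higher and 9 lower), beside 43% of all tested genes. The median log2 difference of the members was 0.00, with 18 above and 18 below 0, and that of all tested genes was -0.01. With plain library totals 12 members were higher (33.3%) and 1 lower, beside 37.3% of all tested genes higher, and 36.1% of the members were called beside 40.1% of all genes, so the members' shares no longer lay above those of all genes. With quantile normalization 8 were higher (22.2%) and 2 lower (5.56%), beside 11.0% and 9.32% of all genes. Without vehicle replicate 1 they numbered 8 (22.2%) and 6 (16.7%), beside 15.8% and 11.7%. The count of lower members was 2 without Chrna4-labelled replicate 2 and 2 without Chrna4-labelled replicate 3. Among all 12099 tested genes the lower ones numbered 496 and 615 in these settings, beside 1241 with all 6 libraries. The authors' deposited table, which tests all 14492 genes, gives 9 members higher and 5 lower at an adjusted p under 0.05, and 12 of them are among the 13 here.

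**Figure D1:**
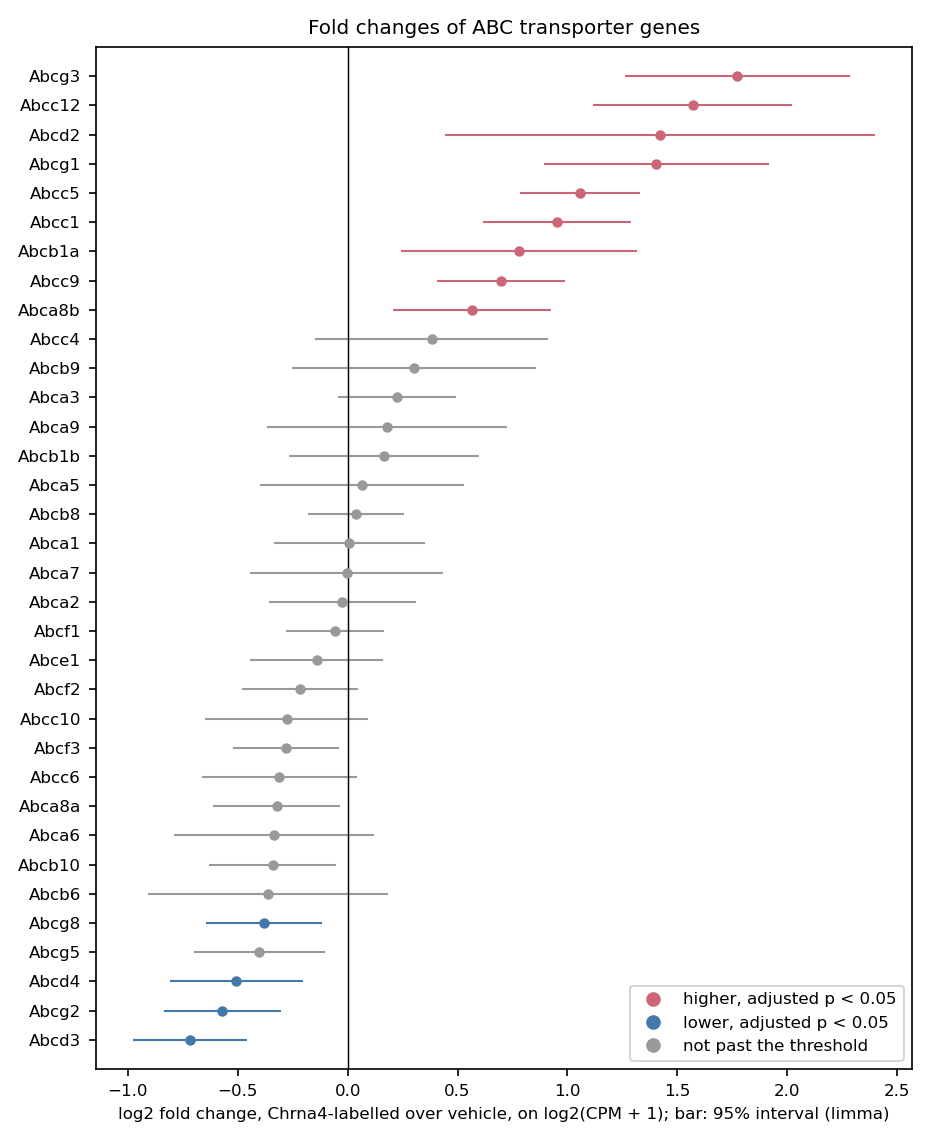
Log2 difference of each reported ABC transporter gene that was tested, Chrna4-labelled over vehicle on log2(CPM + 1), as a point with its 95% interval from limma; colours mark the 9 higher and 4 lower genes. Abcg3 (1.77) and Abcd3 (-0.72) lie at the ends on this scale, on which Abcc12 is understated (3.03 by edgeR on the reads), and with plain library totals the direction of 9 of the genes drawn turns, all of them grey here.

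The genes differed widely in level. Per kilobase of exon and over all 6 libraries, Abcd3 stood highest at 76.9 CPM, followed by Abcc6 (44.8), Abcg5 (40.4), Abcg8 (40.0), Abca6 (39.8) and Abca1 (23.7), and Abca4 lowest at 0.00869. Abcg5, Abcg8 and Abca6 have no firm order, since in the Chrna4-labelled group Abca6 (34.84), Abcg8 (34.72) and Abcg5 (34.68) come in the reverse order. The 9 higher genes had vehicle means of 0.349 to 58.9 CPM, and the 4 lower genes of 24.3 to 632 CPM. Level and difference share the vehicle values, and a low gene such as Abcc12 passed the filter only through the Chrna4-labelled group, so no test was made of this pattern. Summed over the 38 genes, the vehicle libraries held 2526, 2696 and 2827 CPM and the Chrna4-labelled libraries 2274, 2221 and 2264 CPM. Abcd3 alone made up 632 of the mean of 2683 CPM in vehicle and 382 of 2253 CPM in Chrna4-labelled. The sums over the 38 genes did not overlap. As a share of all recovered reads, without the scaling, they did: 0.215%, 0.249% and 0.254% in vehicle and 0.259%, 0.249% and 0.251% in Chrna4-labelled.

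**Figure D2:**
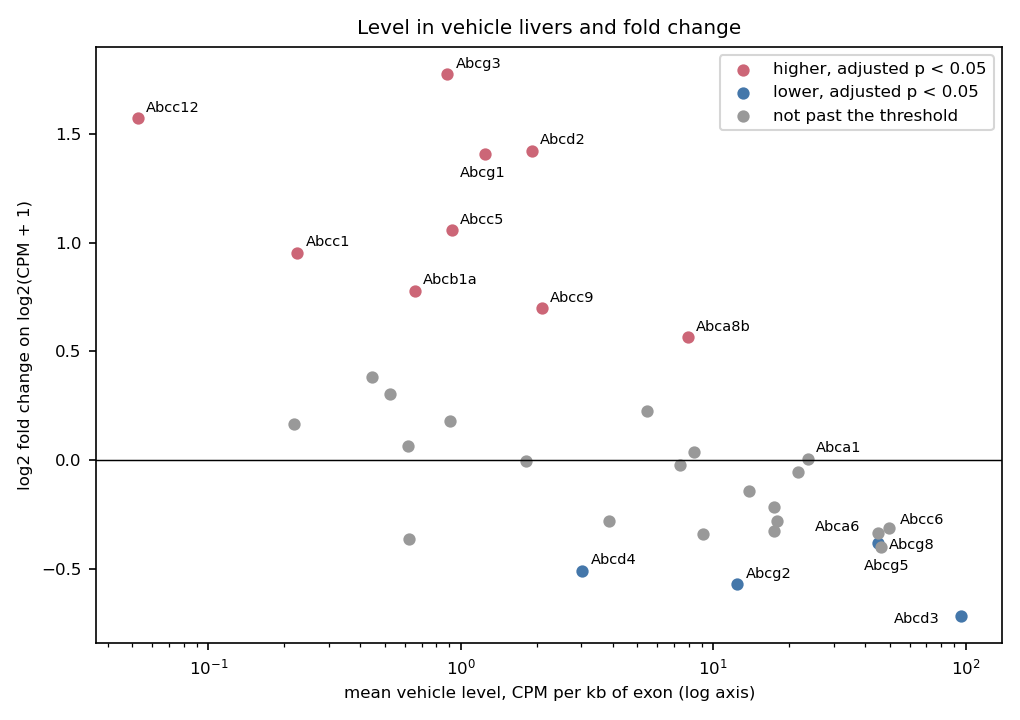
Mean vehicle level per kilobase of exon (log axis) against the log2 difference, 1 point per reported gene that was tested. Of the called genes, those that were lower sit at 3.03 CPM per kilobase (Abcd4) or above, and those that were higher at 7.93 (Abca8b) or under.

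Among the 8 tested genes of sterol and phospholipid export, Abcg1 was higher, Abcg8 was lower and 6 did not pass the threshold. Among all tested genes, 14.2% were higher and 10.3% lower by limma. Abcg1, which loads cholesterol onto HDL and is known from macrophages, read 6.10, 10.8 and 10.3 CPM in vehicle and 19.7, 28.0 and 28.6 CPM in Chrna4-labelled livers. Every Chrna4-labelled library lay above every vehicle library, with means of 9.09 ± 2.60 and 25.4 ± 4.97 CPM (SD, n = 3 each) and a log2 difference of 1.41 ± 0.22 (SE, adjusted p = 0.00373 by limma). The gene spans 31057675 to 31117988 of chromosome 17 (GRCm38, plus strand), and the call held under all alternatives run. Abca1, which starts HDL by handing cholesterol and phospholipid to apolipoprotein A-I, read 202, 238 and 297 CPM in vehicle and 274, 219 and 243 CPM in Chrna4-labelled. The groups lay over each other, and the difference of 0.01 had a 95% interval of -0.34 to 0.35 (adjusted p = 0.982 by limma). Reads of Abcg1 per read of Abca1 were thus 0.0302, 0.0455 and 0.0347 in vehicle and 0.0718, 0.128 and 0.118 in Chrna4-labelled, without overlap. This ratio and those of other gene pairs were formed after the values were seen and are given without a test. Without vehicle replicate 1, which is the lowest in Abcg1 as in the macrophage sum, the difference is 1.17 (adjusted p = 0.000916). The macrophage marker sums given above were higher in the same libraries as Abcg1, and their part in its difference was not tested.

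Abcg5 and Abcg8 encode the partners of a heterodimer that passes sterols into bile and the gut lumen. They lie head to head on chromosome 17 (GRCm38, Abcg5 at 84658234 to 84683011 on the minus strand, Abcg8 at 84676302 to 84700333 on the plus strand), and 109 bases part the RefSeq starts used here. That stretch is printed because it lies upstream of both RefSeq starts, though within the longer span given above for Abcg8. Capitals mark the TATA box TATAAA and the GATA site AGATAA, searched on both strands, the GATA site having been added after the sequence was read.
Abcg5 and Abcg8 between starts, chr17:84683012-84683120, plus strand, RefSeq GRCm38.p6: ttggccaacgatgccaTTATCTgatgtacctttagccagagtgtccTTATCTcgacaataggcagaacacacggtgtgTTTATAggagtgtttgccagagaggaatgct
It holds 2 matches of AGATAA and 1 of TATAAA, all on the strand that reads towards Abcg5, with no overlap. Of all 32817 RefSeq windows, 3.98% hold AGATAA and 5.91% hold TATAAA in the last 109 bases before the start, and 0.186% hold AGATAA more than once. A match describes letters and is not a bound site.

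The genes of this pair kept close to each other. Abcg5 read 140, 132 and 104 CPM in vehicle and 85.7, 103 and 93.5 CPM in Chrna4-labelled, and Abcg8 read 177, 178 and 153 CPM and 128, 147 and 116 CPM. Both were lower in every Chrna4-labelled library than in any vehicle library, and the nearest Abcg5 libraries were 103.9 and 103.0 CPM. Abcg8 fell by 0.38 ± 0.12 on the log2 scale (SE, adjusted p = 0.0438 by limma), and Abcg5 stood at -0.40 (95% interval -0.70 to -0.10, adjusted p = 0.0548), just outside the threshold. In the authors' deposited table the order is the other way, with an adjusted p of 0.0494 for Abcg5 and 0.0619 for Abcg8. Reads of Abcg5 per read of Abcg8 were 0.790, 0.740 and 0.679 in vehicle and 0.672, 0.698 and 0.809 in Chrna4-labelled, and these overlapped. The Abcg8 call is lost with plain library totals (-0.05, adjusted p = 0.752), with quantile normalization (0.282), with edgeR (0.0624), with a mean of at least 5 CPM (0.0511), and without vehicle replicate 1 (0.0564), vehicle replicate 2 (0.120), Chrna4-labelled replicate 1 (0.121) or Chrna4-labelled replicate 3 (0.159). Abcg5 is called by DESeq2 (0.0323) and without vehicle replicate 3 (0.0146). The genes share 82 annotated exon bases on opposite strands, and the sources used here do not give whether strand was counted.

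The other lipid exporters of this group did not pass the threshold, and their groups overlapped. Abca2, a sterol transporter of endosomes and lysosomes, read 53.6, 57.3 and 74.6 CPM in vehicle and 52.0, 64.7 and 64.8 CPM in Chrna4-labelled. Abca3, which fills lung lamellar bodies with phospholipid, read 55.6, 54.0 and 44.4 CPM and 54.9, 65.2 and 60.1 CPM. Abca5, another endosomal and lysosomal member, read 5.48, 7.03 and 8.79 CPM and 9.10, 5.77 and 7.52 CPM. None of these separated the libraries by group. Abca7, a relative of Abca1 that exports phospholipid, read 13.9, 13.3 and 9.53 CPM in vehicle and 9.51, 12.4 and 14.8 CPM in Chrna4-labelled. Their log2 differences ran from -0.02 (Abca2) to 0.23 (Abca3). Abca3 is called with plain library totals, at 0.55. Of 18 other genes of cholesterol efflux and the LXR receptors, 3 were higher and none lower by limma, beside 14.2% and 10.3% of all tested genes. At an unadjusted p under 0.05 by limma 2 were lower, and the median log2 difference was -0.08. The higher genes were Npc2, which binds cholesterol in lysosomes, at 71.3 ± 7.67 and 111 ± 8.10 CPM, Pltp, the phospholipid transfer protein, at 21.7 ± 7.27 and 48.5 ± 4.79 CPM, and Arl4c, an LXR target, at 5.18 ± 1.98 and 12.1 ± 1.97 CPM (SD, n = 3 each; adjusted p of 0.00515, 0.00678 and 0.0141). With plain library totals 8 were higher and with quantile normalization 5, beside 37.3% and 11.0% of all tested genes. DESeq2 called 3 lower, and leaving out vehicle replicate 1 left 2 lower, beside 1424 and 1418 of all 12099 tested genes.

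Peroxisomal transporters, which import fatty acids as CoA esters, moved apart. Abcd3 (chromosome 3, 121758774 to 121815302, minus strand) encodes an abundant peroxisomal membrane protein that carries branched-chain acids and bile acid precursors, and it read 545, 689 and 661 CPM in vehicle and 384, 363 and 399 CPM in Chrna4-labelled livers. It was lower in every Chrna4-labelled library, by 0.72 ± 0.11 on the log2 scale from 632 ± 76.2 to 382 ± 18.4 CPM (adjusted p = 0.00373 by limma), and the call is lost only with quantile normalization (-0.33, adjusted p = 0.0806). Abcd2, which carries very-long-chain and polyunsaturated acids, read 5.40, 22.6 and 6.11 CPM in vehicle and 25.1, 28.3 and 26.1 CPM in Chrna4-labelled. The groups did not overlap, but vehicle replicate 2 lay near the Chrna4-labelled libraries and far from the other vehicle libraries. The log2 difference was 1.42 ± 0.43 (adjusted p = 0.0426 by limma) and 2.03 without vehicle replicate 2 (0.000653). The Abcd2 call is lost with edgeR (0.0946), with DESeq2 (0.181), with a mean of at least 5 CPM (0.0513), and without vehicle replicate 1 (0.0644), vehicle replicate 3 (0.111) or Chrna4-labelled replicates 1, 2 or 3 (0.109, 0.126 and 0.111). Reads of Abcd2 per read of Abcd3 were 0.00991, 0.0329 and 0.00924 in vehicle and 0.0652, 0.0780 and 0.0655 in Chrna4-labelled.

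Of 28 other peroxisome genes 12 were lower by limma and none was higher by limma, edgeR or DESeq2, nor at an unadjusted p under 0.05 by limma, with a median log2 difference of -0.32. Among all tested genes, 10.3% were lower and 14.2% higher by limma. Amacr, a racemase of branched-chain acids, fell from 230 ± 4.31 to 155 ± 11.4 CPM. Slc27a2, a very-long-chain acyl-CoA synthetase, fell from 1785 ± 249 to 1039 ± 20.7 CPM, and Pex16, a peroxin, from 123 ± 9.57 to 83.9 ± 3.85 CPM (SD, n = 3 each; adjusted p of 0.00370, 0.00461 and 0.00519 by limma). The count of lower genes was 2 with plain library totals and 5 with quantile normalization, beside 2.82% and 9.32% of all tested genes. Each of those scalings called 1 gene higher. The count of lower genes was 5 without Chrna4-labelled replicate 2 and 7 without Chrna4-labelled replicate 3. Of all 12099 tested genes, 496 and 615 were lower in these settings, beside 1241 with all 6 libraries. With the authors' scaling the hepatocyte marker sums were lower beside Abcd3 and these genes, and their part was not tested.

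**Figure D3:**
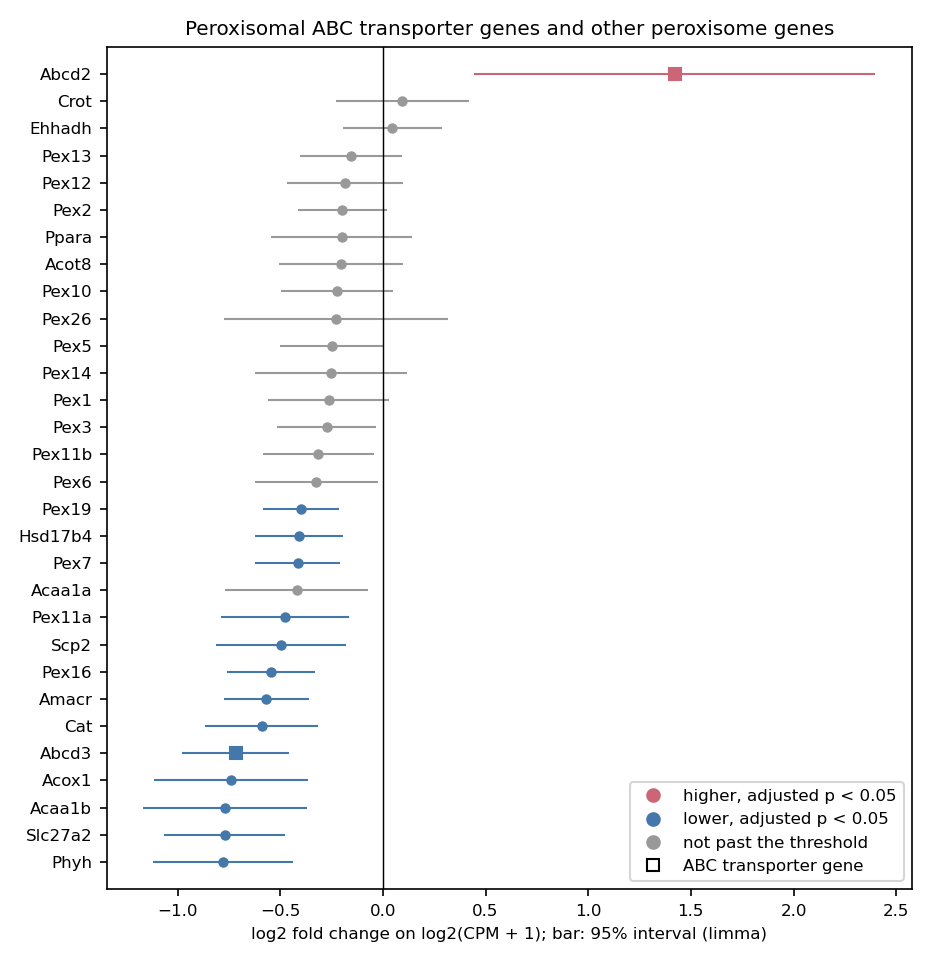
Log2 differences with 95% intervals (limma) of 2 peroxisomal ABC transporter genes (squares) and 28 other peroxisome genes (circles). Abcd2 (1.42) is the gene called higher and Abcd3 (-0.72) is called lower, as are 12 of the other genes, a count that is 2 with plain library totals. Of all tested genes 10.3% were lower, and 2.82% with plain library totals.

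Of the 10 genes grouped as drug, conjugate and nucleotide exporters 5 were higher and 1 lower, beside 14.2% and 10.3% of all tested genes. With plain library totals the same 5 were higher, beside 37.3% of all tested genes, and the lower gene was no longer called. Abcc12 is among the 5 and passed the filter only through the Chrna4-labelled group. Abcc5, which exports cyclic nucleotides and organic anions, read 10.2, 8.85 and 10.5 CPM in vehicle and 20.2, 21.2 and 23.2 CPM in Chrna4-labelled. The libraries within each group lay close together and far from the other group, with a log2 difference of 1.06 ± 0.12 (adjusted p = 0.00110 by limma), the lowest p of the members. Abcg3, a rodent relative of Abcg2, read 1.85, 3.43 and 4.12 CPM in vehicle and 10.9, 13.6 and 13.9 CPM in Chrna4-labelled. Its log2 difference of 1.77 ± 0.22 (adjusted p = 0.00156) was the largest of the tested members on log2(CPM + 1), without overlap; with a pseudocount of 0.5 Abcc12 exceeds it (2.07 and 1.92), as it does with a pseudocount of 0.1, edgeR and DESeq2. Abcc1, the exporter of leukotriene C4 and glutathione conjugates, read 2.78, 3.70 and 3.72 CPM in vehicle and 7.57, 7.73 and 7.15 CPM in Chrna4-labelled. Its difference was 0.95 ± 0.15 (adjusted p = 0.00340), again without overlap. On GRCm38, Abcc5 lies on chromosome 16 at 20331303 to 20426394 and Abcg3 on chromosome 5 at 104935057 to 104982718, both on the minus strand. The calls of Abcc5, Abcc1, Abcg3 and Abcc12 held under every alternative that tested them. Abcc12 was too low to be tested in the alternative with a mean of at least 5 CPM.

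Abcc12, a member of the conjugate exporter subfamily with an uncertain substrate, rested on few reads: 2, 12 and 5 in vehicle and 42, 62 and 60 in Chrna4-labelled, or 0.154, 0.644 and 0.248 CPM and 2.46, 3.28 and 3.18 CPM. Its vehicle mean of 0.349 CPM lay under the filter, which Abcc12 passed only through the Chrna4-labelled group. All Chrna4-labelled libraries were above all vehicle libraries (log2 difference 1.57 ± 0.20, adjusted p = 0.00156 by limma). The pseudocount shrinks this difference, which is 3.03 by edgeR on the reads and 3.01 in the authors' deposited table. Abcb1a, a P-glycoprotein gene of mice known from the blood-brain barrier, read 3.01, 4.83 and 2.98 CPM in vehicle and 8.69, 7.41 and 4.77 CPM in Chrna4-labelled. Its groups overlapped, since vehicle replicate 2 lay above Chrna4-labelled replicate 3. The difference was 0.78 ± 0.23 (adjusted p = 0.0427), and the call is lost with quantile normalization (0.150), with a mean of at least 5 CPM (0.0562) and without vehicle replicate 1 (0.0618), vehicle replicate 3 (0.107), Chrna4-labelled replicate 1 (0.145) or Chrna4-labelled replicate 2 (0.144). Its neighbour Abcb1b, the other P-glycoprotein gene, read 2.08, 1.56 and 1.59 CPM and 1.53, 2.59 and 2.17 CPM, which overlapped (0.17, adjusted p = 0.573). These genes are close copies, and the sources used here do not give how shared reads were counted.

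Abcg2, the efflux pump of urate, porphyrins and sulphated conjugates, was the lower gene of this group, at 93.4, 97.9 and 114 CPM in vehicle and 76.8, 65.5 and 62.4 CPM in Chrna4-labelled. The groups did not overlap, and Abcg2 fell by 0.57 ± 0.12 on the log2 scale (adjusted p = 0.00999 by limma). The call is lost with plain library totals (-0.24, adjusted p = 0.158) and without Chrna4-labelled replicate 2 (0.0509). Abcc6, a liver transporter needed for ATP release and mutated in human pseudoxanthoma elasticum, read 358, 242 and 256 CPM in vehicle and 202, 237 and 242 CPM in Chrna4-labelled. These values did not overlap, by a narrow margin between vehicle replicate 2 and Chrna4-labelled replicate 3, and the difference of -0.31 (adjusted p = 0.184) turns to 0.02 with plain library totals. Abcc4 (0.38), a cyclic nucleotide and bile acid exporter, and Abcc10 (-0.28) overlapped between groups and did not pass, though Abcc10 is called without vehicle replicate 2 (adjusted p = 0.0481) and turns to 0.04 with plain library totals. Of 16 tested xenobiotic sensor and NRF2 pathway genes 5 were higher and 2 lower by limma, beside 14.2% and 10.3% of all tested genes. Their median log2 difference was 0.22. Srxn1, which repairs peroxiredoxins, rose from 40.0 ± 5.41 to 93.9 ± 3.39 CPM, Hmox1, which breaks down haem, from 27.3 ± 2.93 to 57.0 ± 4.89 CPM, and Nqo1, a quinone reductase, from 4.87 ± 2.03 to 10.2 ± 1.21 CPM. The lower genes were Cyp1a2, a drug-metabolizing cytochrome, from 586 ± 121 to 215 ± 26.5 CPM, and Nr1i3, the receptor CAR, from 62.5 ± 28.1 to 17.1 ± 3.44 CPM (SD, n = 3 each; adjusted p of 0.000508, 0.00100, 0.0173, 0.00116 and 0.00363 in the order named). The count of higher genes was 10 with plain library totals, beside 37.3% of all tested genes. It was 2 without Chrna4-labelled replicate 1 or 2, beside 1159 and 946 of all 12099 tested genes and 1721 with all 6 libraries. The count of lower genes on this list was 4 without vehicle replicate 1, beside 11.7% of all tested genes. Macrophage, lymphocyte and stellate marker sums were higher beside Abcc5, Abcg3, Abcc1 and Abcc12, whose differences without vehicle replicate 1 are 1.08, 1.53, 0.85 and 1.47, and their part was not tested.

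**Figure D4:**
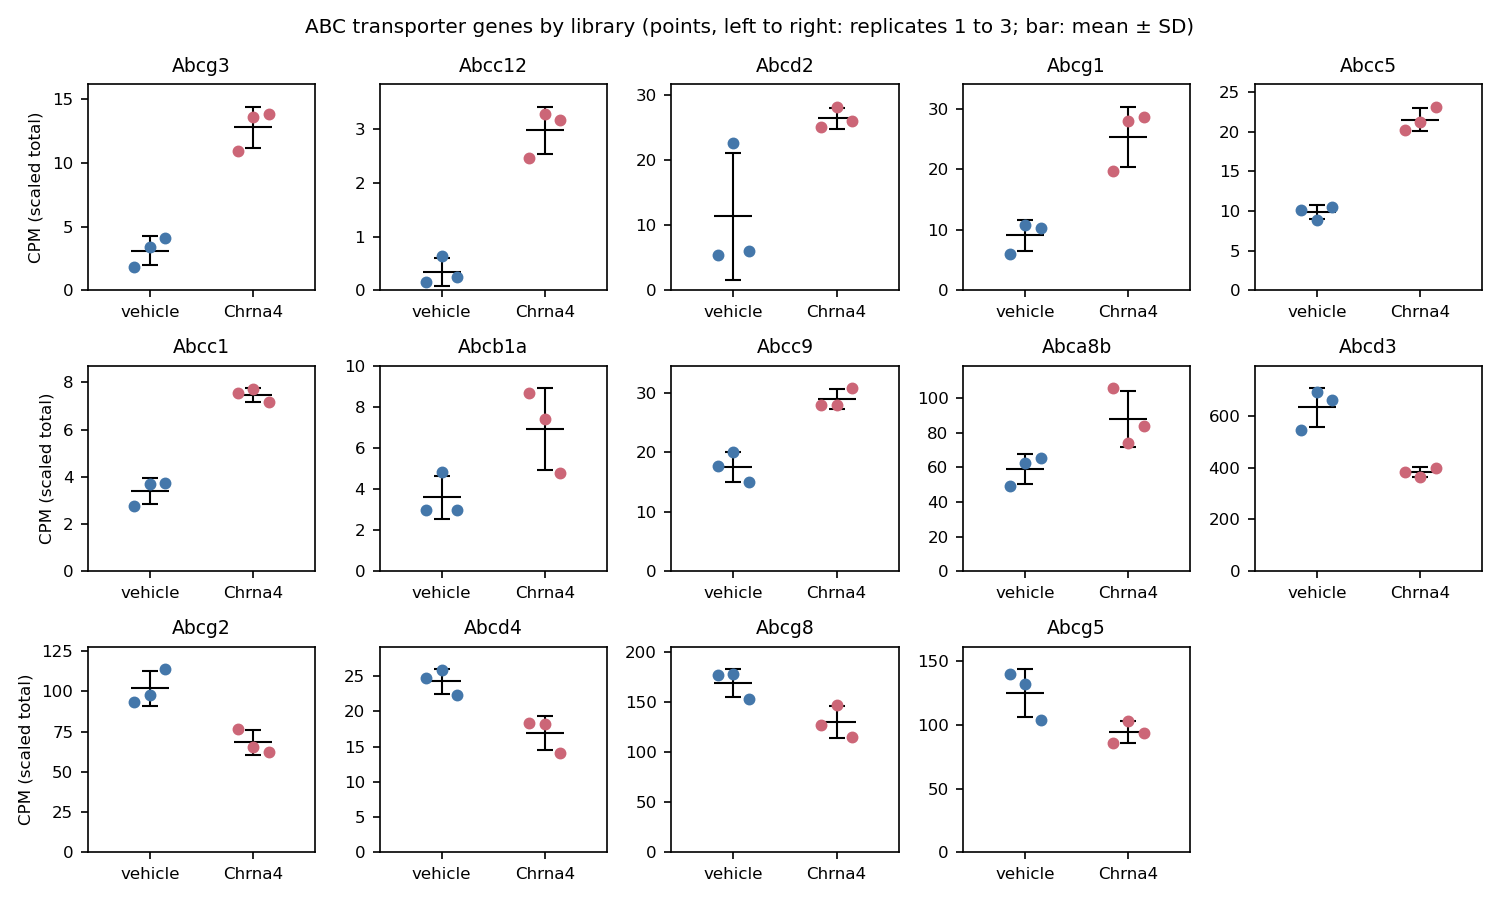
CPM in each library for the 13 ABC transporter genes past the threshold and for Abcg5, vehicle in blue and Chrna4-labelled in red; points are replicates 1 to 3 from left to right and bars are mean ± SD. Abcb1a is the gene drawn whose groups overlap, and vehicle replicate 2 stands apart for Abcd2 at 22.6 CPM.

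Genes of the Abca6 type, which form a cluster on chromosome 11 and whose substrates are little known, differed in their values. Abca8b (109932190 to 109995845, minus strand, GRCm38) read 49.0, 62.3 and 65.2 CPM in vehicle and 106, 74.1 and 83.7 CPM in Chrna4-labelled. Abca8a (110025634 to 110095978, minus strand) read 102, 95.7 and 129 CPM and 92.7, 86.1 and 80.1 CPM. Neither gene overlapped between the groups, and with the authors' scaling Abca8b lay above and Abca8a below its vehicle values. Abca8b was higher by 0.57 ± 0.16 (adjusted p = 0.0312 by limma), and Abca8a stood at -0.32 (adjusted p = 0.0980), which turns to 0.01 with plain library totals. Reads of Abca8b per read of Abca8a were 0.478, 0.651 and 0.506 in vehicle and 1.14, 0.860 and 1.04 in Chrna4-labelled, without overlap and independent of the scaling. The Abca8b call is lost without vehicle replicate 2 (0.0516), Chrna4-labelled replicate 1 (0.101) or Chrna4-labelled replicate 3 (0.0790). Since the genes are similar copies, a split of shared reads between them is uncertain. The upstream sequences of both are printed because the read ratio of these neighbours differed between the groups; capitals mark CACGTG in Abca8a and GGGCGG in Abca8b, searched on both strands, and bases annotated as exon were left out.
Abca8a, chr11:110095979-110096187, minus strand, RefSeq GRCm38.p6: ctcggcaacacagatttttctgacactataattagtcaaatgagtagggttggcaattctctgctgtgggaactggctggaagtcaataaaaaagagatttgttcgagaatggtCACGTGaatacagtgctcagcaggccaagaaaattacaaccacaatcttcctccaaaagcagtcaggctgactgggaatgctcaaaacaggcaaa
Abca8b, chr11:109995846-109996095, minus strand, RefSeq GRCm38.p6: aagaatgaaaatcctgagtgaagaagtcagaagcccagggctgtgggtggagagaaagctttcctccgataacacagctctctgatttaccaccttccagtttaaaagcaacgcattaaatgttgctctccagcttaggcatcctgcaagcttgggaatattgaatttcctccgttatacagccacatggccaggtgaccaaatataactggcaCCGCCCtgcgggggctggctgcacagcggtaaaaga
CACGTG is held by 5.41% of all RefSeq windows in 209 bases before the start, and GGGCGG by 32.7% in 250 bases. Neither stretch held the nuclear receptor half-site (AGGTCA), the core of the antioxidant response element (TGACNNNGC), a CCAAT box, the TATA box or the GATA site, which says only that those letters are absent there. The full RefSeq window of Abca8b also holds CACGTG and TGACNNNGC, both in the bases after the start, which are not printed.

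Farther along the cluster, Abca6 read 175, 243 and 308 CPM in vehicle and 220, 165 and 179 CPM in Chrna4-labelled. The groups overlapped (-0.34, adjusted p = 0.266 by limma), and without vehicle replicate 1 Abca6 passes the threshold (-0.55, adjusted p = 0.0182). Abca9 read 4.55 to 9.88 CPM in vehicle and 6.83 to 9.22 CPM in Chrna4-labelled, also with overlap. Abca14 and Abca4 were too low to be tested. Abca14 had 2, 22 and 9 reads in vehicle and 4, 1 and 1 reads in Chrna4-labelled, and the authors' deposited table gives it a log2 fold change of -2.39 with an adjusted p of 0.0204. Abca4, the retinal transporter, had 1, 4 and 0 reads and 3, 0 and 3 reads.

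**Figure D5:**
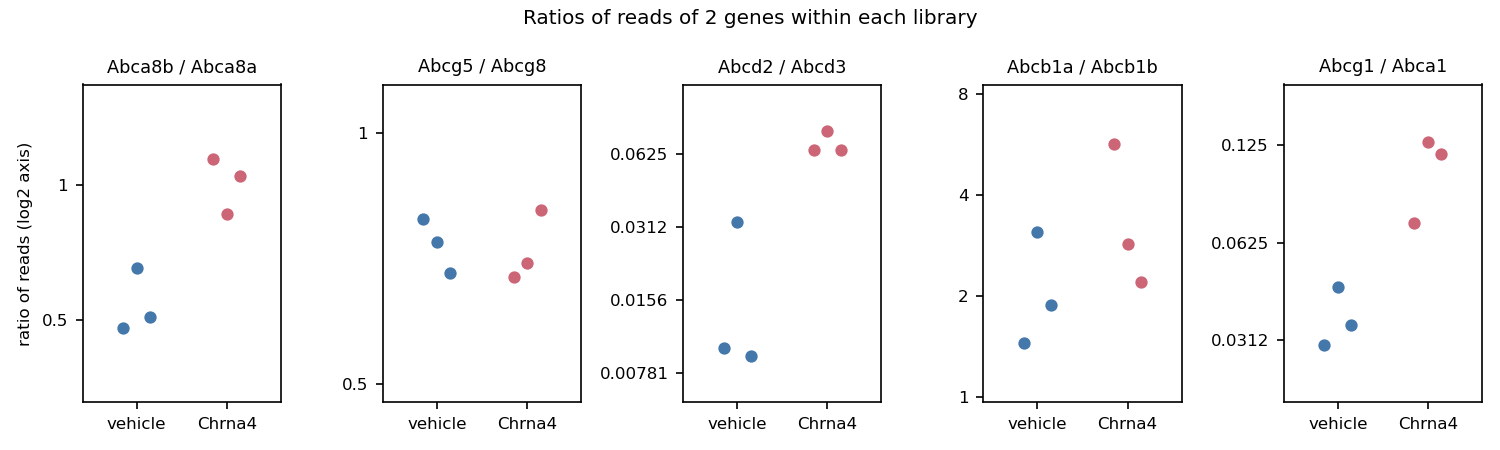
Reads of 1 gene per read of a second gene within each library (log2 axis), vehicle in blue and Chrna4-labelled in red, replicates 1 to 3 from left to right. The groups do not overlap for Abca8b to Abca8a, Abcd2 to Abcd3 and Abcg1 to Abca1, and overlap for Abcg5 to Abcg8 and Abcb1a to Abcb1b.

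None of the 4 mitochondrial transporters and none of the 4 soluble members that act on ribosomes passed the threshold by limma, edgeR or DESeq2. By limma, 24.5% of all tested genes passed it. At an unadjusted p under 0.05 by limma, 1 of each group, Abcb10 and Abcf3, was lower. Abcb10, which takes part in haem synthesis, read 32.6, 44.5 and 40.6 CPM in vehicle and 30.0, 30.1 and 31.5 CPM in Chrna4-labelled. The groups did not overlap (-0.34, adjusted p = 0.0850), and without vehicle replicate 1 Abcb10 passes (-0.47, adjusted p = 0.00650). Abcb8 read 41.9, 36.7 and 40.4 CPM in vehicle and 40.4, 39.5 and 42.1 CPM in Chrna4-labelled, a difference of 0.04 (95% interval -0.18 to 0.26), and it is called with plain library totals (0.36). Abcb6, a porphyrin transporter, read 4.94, 2.90 and 2.09 CPM and 2.41, 1.96 and 2.33 CPM. Both genes overlapped between groups. Abcb6 shares 2932 of its 5315 exon bases with the predicted gene Gm29253 on the same strand. Of 25 other genes of haem and iron-sulphur synthesis 6 were lower by limma and none was higher by limma, edgeR or DESeq2, nor at an unadjusted p under 0.05 by limma, with a median of -0.22. Among all tested genes, 10.3% were lower by limma. Cpox and Urod, enzymes of haem synthesis, fell from 276 ± 5.88 to 171 ± 10.0 CPM and from 82.4 ± 11.0 to 57.5 ± 3.65 CPM, and Nfs1, which provides sulphur for iron-sulphur clusters, from 64.0 ± 2.49 to 50.7 ± 0.503 CPM (SD, n = 3 each; adjusted p of 0.00151, 0.0146 and 0.0244 by limma). With plain library totals 1 gene was higher. The count of lower genes was 1 with those totals and 3 with quantile normalization, beside 2.82% and 9.32% of all tested genes. It was 1 without Chrna4-labelled replicate 1, 1 without replicate 2 and 3 without replicate 3 of that group. Of all 12099 tested genes, 707, 496 and 615 were lower in these settings, beside 1241 with all 6 libraries.

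Abce1, which splits ribosomes after termination, read 67.4, 87.1 and 95.8 CPM in vehicle and 73.2, 72.5 and 78.7 CPM in Chrna4-labelled. Abcf1, which binds the initiation factor eIF2, read 99.4, 86.6 and 100 CPM and 85.5, 93.3 and 96.0 CPM. Both overlapped between groups. Abcf2 read 44.1, 42.5 and 47.7 CPM in vehicle and 33.4, 43.1 and 38.9 CPM in Chrna4-labelled. Abcf3, a relative of a yeast activator of the kinase Gcn2, read 64.1, 57.9 and 69.0 CPM and 49.9, 56.9 and 49.8 CPM. Abcf2 overlapped and Abcf3 did not, with a difference of -0.28 (adjusted p = 0.0880 by limma) that turns to 0.05 with plain library totals. Abce1 is called without vehicle replicate 1 (adjusted p = 0.0431), and Abcf1 turns to 0.27 and is called with plain library totals (0.0434). Of 22 tested genes of ribosome recycling and the GCN2 pathway, Impact, an inhibitor of that kinase, was higher at 14.5 ± 0.725 and 19.8 ± 0.863 CPM, and Mcts1, a ribosome recycling factor, was lower at 32.8 ± 3.07 and 23.9 ± 0.593 CPM (SD, n = 3 each; adjusted p of 0.0209 and 0.0183). The other 20 were not called, beside 14.2% higher and 10.3% lower among all tested genes. The Impact call is lost without vehicle replicate 3 or any 1 Chrna4-labelled library, and that of Mcts1 without Chrna4-labelled replicate 2 or 3. Without vehicle replicate 1, 3 genes of this list are lower, beside 11.7% of all tested genes. With plain library totals 4 of these genes are higher, beside 37.3% of all tested genes. None is lower there, so that the Mcts1 call is lost too.

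Abcd4, which releases cobalamin from lysosomes, read 24.7, 25.9 and 22.3 CPM in vehicle and 18.4, 18.2 and 14.1 CPM in Chrna4-labelled. All Chrna4-labelled libraries were lower, by 0.51 ± 0.13 on the log2 scale (adjusted p = 0.0250 by limma). The call is lost with plain library totals (-0.19, adjusted p = 0.299) and without vehicle replicate 2 (0.0769), Chrna4-labelled replicate 2 (0.0616) or Chrna4-labelled replicate 3 (0.0888). Abcb9, a lysosomal peptide transporter, read 1.89 to 4.55 CPM in vehicle and 3.18 to 3.99 CPM in Chrna4-labelled, which overlapped, and it is called without vehicle replicate 1 (adjusted p = 0.0337). Abcc9, the sulphonylurea receptor subunit of ATP-sensitive potassium channels, read 17.7, 20.1 and 14.9 CPM in vehicle and 28.0, 28.0 and 30.9 CPM in Chrna4-labelled. It was higher in every Chrna4-labelled library, by 0.70 ± 0.13 (adjusted p = 0.00643 by limma), and stayed called under all alternatives run. The stellate and matrix marker sums were higher beside Abcc9, and their part was not tested.

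Of the ABC genes outside the rule, Tap1 and Tap2, which load peptides for MHC class I, were higher, at 43.5 ± 5.16 and 87.1 ± 6.90 CPM for Tap1 and 23.5 ± 1.71 and 32.0 ± 3.34 CPM for Tap2 (adjusted p of 0.00118 and 0.0280 by limma). The canalicular and sinusoidal exporters Abcc2 (-0.34, adjusted p = 0.129), Abcb11 (-0.09), Abcc3 (0.09) and Abcb4 (-0.04) did not pass the threshold, and Cftr was too low to be tested. Of these genes 1 is called higher without vehicle replicate 2 or 3 or Chrna4-labelled replicate 2 or 3, and 1 is called lower without vehicle replicate 1.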

How the data were processed

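Per the submitters' processing notes, TopHat2 and HTSeq were used, and the builds mm10 and GRCm38 are named there; no version, annotation, strand setting or rule for shared reads is stated. Per the file headers, the deposited table holds a signal per library and the authors' own log2 fold change, p-value and adjusted p-value per gene. Dividing the authors' signal by its smallest step gave whole read counts in every library (100% of values within 0.01), so the deposited signal is CPM of a scaled total. The ABC genes and gene lists were chosen with earlier results of these data known. Gene roles are textbook background, and 8 listed ABC symbols were not analysed here. Of the 38 genes, 2 enter the counts and sums but are not reported here by name.

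Genes with a mean CPM of 1 or more, 12099 in all, were tested on log2(CPM + 1) by limma 3.58.1 in R 4.3.3, using lmFit and then eBayes with its trend option. P-values were adjusted by Benjamini-Hochberg over all of them, with a threshold of 0.05. As the table holds normalized values, limma was the main test and edgeR, which the design kept for counts, an alternative. Fold changes compare Chrna4-labelled with vehicle on that scale, which understates changes of low genes. No sample was dropped or imputed. Alternatives were plain library totals, quantile normalization, pseudocounts of 0.5 and 0.1, no filter, a mean of at least 5 CPM, edgeR 4.0.16 (quasi-likelihood, TMM) and DESeq2 1.42.0 on the recovered reads, and leaving out each library. The code for limma was run on simulated data with known changes first. Values per library are given for every called member, the 6 highest per kilobase and the lipid, peroxisomal, mitochondrial and ribosomal groups. From each list of other pathway genes, up to 3 called genes per direction with the lowest p are named. Coordinates and exon lengths come from GENCODE M21 (GRCm38), in which 14480 of the 14492 gene numbers were found. Promoter windows came from RefSeq (GRCm38.p6) for 29 of the 38 genes.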

Additional observations from a re-analysis of the deposited data

How the results depend on the processing

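No paired analysis was possible because the labels give each liver a number of its own and tie no vehicle mouse to a Chrna4-labelled mouse. The calls of Abcc5, Abcg3, Abcc12, Abcc1, Abcg1 and Abcc9 held wherever they were tested, and both pseudocounts and the absence of a filter kept all 13 calls. The 9 higher members numbered 6 to 8 with 1 library left out, and the 4 lower members 2 to 6. Lower members numbered 1 with plain library totals and 2 with quantile normalization. Over all genes, 1721 were higher, 4511 with plain library totals, 1036 with a mean of at least 5 CPM and 946 to 1913 with 1 library left out; 1241 were lower, 341 with plain library totals and 496 to 1418 with 1 library left out. Plain library totals, which move all genes by a median of 0.30, turned the log2 difference of Abcf3 (0.048), Abca8a (0.0075), Abcc6 (0.021), Abcf2 (0.11), Abcc10 (0.043), Abce1 (0.19), Abcf1 (0.27), Abca2 (0.31) and Abca7 (0.30). Quantile normalization turned Abcb9 (-0.017), Abcb1b (-0.19), Abca9 (-0.058), Abcf1 (0.067), Abca5 (-0.18) and Abca2 (0.041). DESeq2 turned Abca1 (-0.0051) and Abca7 (0.0032), and edgeR turned Abca7 (0.022). The cause of the quantile, DESeq2 and edgeR changes was not tested. With 1 library left out, Abca9 ran from -0.082 to 0.40, Abcb8 from -0.017 to 0.076, Abca5 from -0.086 to 0.22, Abca2 from -0.12 to 0.12, Abca1 from -0.12 to 0.15 and Abca7 from -0.16 to 0.15. The log2 difference of the Abcg5 to Abcg8 read ratio, -0.02, ran from -0.10 to 0.033. With 3 libraries a group and as few as 2 reads of Abcc12 in a vehicle library, differences of low genes are imprecise.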
